A study of Homo sapiens with 6 samples.

Results

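The protein-coding genes of the replication-dependent histone clusters were examined in endodermal cells of the third pharyngeal pouch type (3PPE) derived from H9, an established line of human embryonic stem cells (hESCs). They were taken as every row of the count table whose Ensembl identifier was listed as protein coding in GENCODE release 29 with a symbol that began with HIST1H, HIST2H, HIST3H or HIST4H, which gave 71 of 58735 rows. All cultures went through the same directed differentiation, with Activin A and WNT3A first and then retinoic acid, BMP4 and inhibitors of TGF-beta and Wnt signalling. They received siRNA by lipofection at day 7 and were harvested at day 9. The siControl group comprised 3 cultures given a negative control siRNA, with the genotype labelled WT, and the siHOXA3 group comprised 3 cultures given siRNA against HOXA3, labelled HOXA3 knockdown. Nothing in the labels states whether the replicates came from separate differentiations, so the p-values measure the spread between these libraries, which may be technical.

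Histones H2A, H2B, H3 and H4 form the protein core around which DNA is wound, and the linker histone H1 binds where DNA enters and leaves it. The cluster genes are known to be transcribed mainly in S phase, when new chromatin is assembled. Their mRNAs are unusual in that most have no intron and end not in a poly(A) tail but in a short stem-loop, which is bound by the stem-loop binding protein SLBP. Several of them also have a longer, polyadenylated form that is known from differentiated or non-dividing cells. A library made from polyadenylated RNA would read the clusters mainly through their longer forms. The labels name an mRNA kit besides the ligation-mediated (LM-Seq) protocol, and neither they nor the methods state how the RNA was selected, so the level of a cluster gene below is that of the forms the library could hold.

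The 71 genes comprised 6 of H1, 17 of H2A, 18 of H2B, 15 of H3 and 15 of H4. On GRCh38, 55 lie in the HIST1 cluster (chr6:25726132-27893843), 12 in HIST2 and 3 in HIST3 on chromosome 1, and 1 on chromosome 12 (HIST4H4). A stem-loop was searched by the 16-base consensus of the histone stem-loop, on the strand of the transcript and with up to 1 mismatch, in the 250 bases after each stop codon. It was found in 32 genes, 22 to 67 bases after the stop, and 31 of these had no mismatch. It could not be found where the annotation stops at the stop codon. In the 32 genes 6 different 16-base sequences occurred, and they are printed because they are the mark that sets these mRNAs apart. Capitals mark the stem-loop and lower case the 5 bases on either side, as DNA in the direction of the transcript:

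HIST3H2A: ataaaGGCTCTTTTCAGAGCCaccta

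HIST4H4: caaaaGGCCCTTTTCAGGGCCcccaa

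HIST1H2BD: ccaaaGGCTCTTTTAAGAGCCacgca

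HIST1H4I: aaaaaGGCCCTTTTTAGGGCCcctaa

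HIST1H3E: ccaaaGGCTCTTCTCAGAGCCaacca

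HIST1H2AG: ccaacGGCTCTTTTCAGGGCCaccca

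The capitals of HIST3H2A lie at chr1:228457369-228457384 (minus strand) and those of HIST4H4 at chr12:14770724-14770739 (minus strand). Those of HIST1H2BD lie at chr6:26158587-26158602, of HIST1H4I at chr6:27139654-27139669, of HIST1H3E at chr6:26225596-26225611 and of HIST1H2AG at chr6:27133515-27133530, all on the plus strand. The form of HIST3H2A was shared by 17 genes of H2A, H2B and H3, that of HIST1H2BD by 5 genes of H2B and H3, that of HIST4H4 by 5 genes of H4, and that of HIST1H4I by 3 genes of H4. The forms of HIST1H3E, which had the 1 mismatch, and of HIST1H2AG were found in 1 gene each.

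By the annotation, 24 genes had a transcript that ended more than 100 genomic bases past the stem-loop and are called extended here. Of these, 19 carried AATAAA or ATTAAA, the polyadenylation signal, in the last 40 bases of an extended end. A further 8 genes ended at the stem-loop, 35 were annotated as coding sequence only, with no base after the stop codon, and 4 had another end with no match. The extended genes comprised 10 of the 18 H2B, 6 of the 15 H4, 5 of the 15 H3 and 3 of the 17 H2A genes, and 0 of the 6 H1 genes.

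The promoters of the histone genes are known for a few short elements, which were read in the RefSeq windows of GRCh38.p14, 250 bases before to 50 after the start. By symbol or synonym 61 of the 71 genes were matched. The motifs were searched on both strands, whatever their overlap with each other. CCAAT, the box bound by NF-Y, was found in 83.6% of them against 35.7% of all 27305 windows. TATAAA, the core of the TATA box, was found in 67.2% against 12% of all windows. ATTTGCAT, the octamer bound by POU2F1, was found in 34.4% against 1.8%. The octamer lay in 11 of 16 H2A and 9 of 13 H2B windows, in 1 of 13 H3 windows, and in 0 of 6 H1 and 0 of 13 H4 windows. That H3 window, matched to HIST1H3D, is the same stretch as the H2A window of HIST1H2AD (chr6:26199244-26199543). It was therefore counted under both types, for CCAAT as well. Several H2A and H2B windows also overlap, since their genes start in opposite directions from 1 region. Those of HIST1H2AA (chr6:25726513-25726812) and HIST1H2BA (chr6:25726527-25726826) are an example. Matches there were counted under both types, so the H2A and H2B shares are not independent. CCAAT was found in every matched H1, H2A, H2B and H3 window and in 3 of 13 H4 windows. A pair of windows is printed, since HIST2H2BE, which held all 3 motifs, and HIST4H4, which held no CCAAT, show this difference. Capitals mark the matches:

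HIST2H2BE: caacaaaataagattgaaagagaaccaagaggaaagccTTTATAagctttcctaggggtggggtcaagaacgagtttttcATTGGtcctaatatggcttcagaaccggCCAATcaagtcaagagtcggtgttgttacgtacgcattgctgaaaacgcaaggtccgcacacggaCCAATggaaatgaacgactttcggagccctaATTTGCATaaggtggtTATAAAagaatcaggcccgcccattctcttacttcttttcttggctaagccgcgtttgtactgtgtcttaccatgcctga

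HIST4H4: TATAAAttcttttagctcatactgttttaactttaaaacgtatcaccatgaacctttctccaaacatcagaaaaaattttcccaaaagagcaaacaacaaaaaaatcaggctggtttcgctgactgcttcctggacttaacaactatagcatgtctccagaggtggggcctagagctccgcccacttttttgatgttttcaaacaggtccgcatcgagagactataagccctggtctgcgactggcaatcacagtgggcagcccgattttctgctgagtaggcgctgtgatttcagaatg

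The window of HIST2H2BE lies at chr1:149886633-149886932 and that of HIST4H4 at chr12:14771082-14771381, both on the minus strand. The TATAAA of HIST4H4 opened its window, at the end farthest from the start. A match is a description of the letters and not of a bound site.

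The libraries held 14117150 to 15282307 counts, and 3 counts, the limit that a count of 0 allows, were worth 0.196 to 0.211 CPM, the counts scaled to a common library size. Intervals and this limit cover counting error only. HOXA3 itself, the target of the siRNA, had 16.61, 15.82 and 15.42 CPM in siControl and 10.9, 13.2 and 15.46 CPM in siHOXA3, so the library labelled siHOXA3 replicate 3 was above siControl replicate 3 (log2 fold change -0.27, SE 0.157, adjusted p = 0.828 by edgeR). The library of siHOXA3 replicate 2 stood apart, with a chi-square per degree of freedom of 28.18 to 34.06 against each other library, where the other pairs had 4.829 to 11.69. Of the 9 pouch markers examined, PAX1 and FOXN1 had at most 2 counts in any library and PAX9 at most 16, while EYA1 had a mean of 36.16 CPM in siControl and 40.64 CPM in siHOXA3 and the epithelial marker EPCAM 262.2 and 308.6 CPM. The summed level of 8 amnion and trophoblast markers, all of them detected, was 2371 to 2524 CPM in siControl and 2524 to 2671 CPM in siHOXA3. The 5 pluripotency markers summed to 1136 to 1178 and 1187 to 1323 CPM, mostly on LIN28A, with means of 1047 and 1146 CPM. DPPA4 had means of 101.5 and 106 CPM, POU5F1 of 5.457 and 7.018 CPM and SOX2 of 3.615 and 4.147 CPM. NANOG had at most 4 counts in any library. The 5 mesenchyme markers summed to 3360 to 3535 and 3203 to 3773 CPM. The part of these markers in the histone values was not tested.

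The clusters as a whole were read thinly. All 71 genes together held 3853 counts in the 6 libraries, 57 of them had any count, 39 had at least 10 counts over all libraries, and 14 were at 0 in every library. Between 39 and 46 genes were seen in a library. The counts lay mostly on the extended genes, which took 74.12% of the histone counts, while the genes annotated as coding sequence only took 21.31%, those ending at the stem-loop 2.959% and the remaining 4 genes 1.609%. HIST3H2A alone took 21.88%.

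Compared per kilobase of merged exons, the 24 extended genes had a median level of 0.3596 CPM per kb over the 6 libraries, the 8 genes ending at the stem-loop 0.264, and the 35 genes annotated as coding sequence only 0.1168. Of the 35, 13 had no count in any library, against 1 of the 24 and 0 of the 8. The exon length holds the long tail of the extended genes, and per kilobase of coding sequence their median level was 1.898 CPM per kb against 0.333 in those ending at the stem-loop. With an extension counted only beyond 300 bases, the order of the medians turned, with 0.3299 CPM per kb in 23 extended genes and 0.3486 in 9 that ended at the stem-loop. Which ends the reads lay on cannot be told from counts per gene, and a gene annotated without its end may miss reads that fall past the stop codon.

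**Figure D1:**
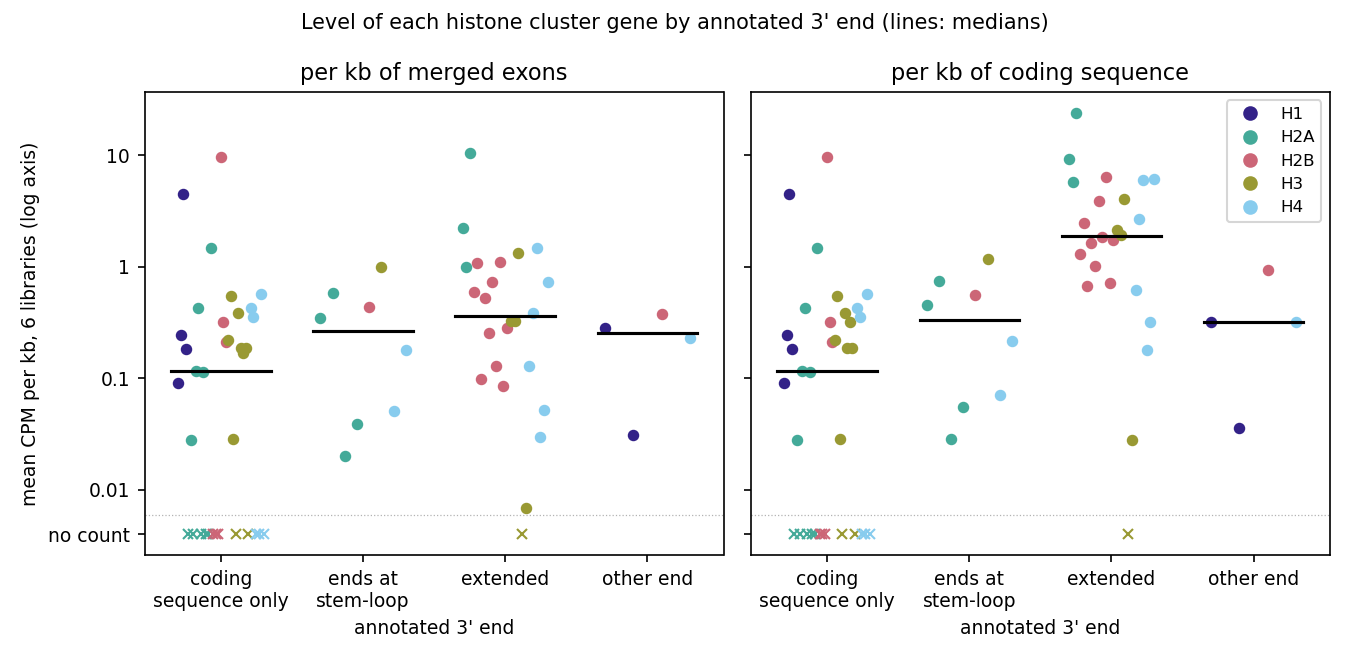
Mean CPM per kilobase of each of the 71 histone cluster genes over the 6 libraries, on a log axis, by annotated 3' end and coloured by histone type, per kb of merged exons (left) and of coding sequence (right). Black lines are medians and crosses are genes with no count. The median of the extended genes was 0.3596 on the left and 1.898 on the right, and 13 of the 14 genes without a count are annotated as coding sequence only.

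Ranked per kilobase of merged exons, the highest gene was HIST3H2A (10.55 CPM per kb), an H2A gene of the small HIST3 cluster. HIST1H2BK, an H2B gene, followed at 9.739, HIST1H1C, the gene of the linker histone H1.2, at 4.498 and HIST1H2AC at 2.214. HIST1H2BK and HIST1H1C are annotated as coding sequence only, as is HIST2H2AC at 1.487, and these 3 were the highest of a class whose median was 0.1168. The group means of HIST3H2A and HIST1H2BK, 10.14 and 8.959 CPM per kb in siControl and 10.95 and 10.52 in siHOXA3, stood close. Per kilobase of coding sequence the gap was wider, with 24.02 CPM per kb for HIST3H2A and 9.739 for HIST1H2BK, and the order was the same.

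Some of the genes are near copies of each other or overlap another gene, and this limits what a count means. In 7 genes (HIST1H2AK, HIST1H3D, HIST1H4K, HIST2H2AA3, HIST2H3A, HIST2H3C and HIST2H3PS2) every 50-base stretch of the transcripts was also found in another gene. Of these, HIST1H3D overlaps AL031777.3 in the same direction and HIST1H2AK overlaps HIST1H2BN in the opposite direction. The stretches were matched on either strand, so such an overlap counts as sharing. In 17 genes at least 50% of the stretches were shared, in 30 none, and the median share was 1.711%. Of the 7 genes, 4 had no count, HIST2H3C and HIST2H2AA3 had 1 count each, and HIST1H4K had 2, 3 and 0 counts in siControl and 0, 7 and 4 in siHOXA3. HIST1H2BK shared 74.1% of its stretches, among others with HIST1H2BC, HIST1H2BJ and H2BFS, so its counts are uncertain. HIST3H2A shared 0.591% and HIST1H1C 0%. How reads that match several genes were counted is not given in the sources used here. Of the 71 genes, 16 overlap another gene, 11 of them in the opposite direction, and no source says that reads were counted by strand.

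The histone genes often lie in pairs that start from one shared promoter region in opposite directions. By the annotated gene starts, 12 such pairs, of 23 genes, were found. HIST1H2AK and HIST1H2BN were not among them, although their promoter windows overlap (chr6:27838326-27838625 and chr6:27838319-27838618). HIST1H2BN is annotated from farther upstream, at position 27837760. HIST1H3J and HIST1H2AM overlap in the same direction and were both paired with HIST1H2BO, so that region was counted more than once. The partners were read unequally. HIST3H2A had 843 counts over the 6 libraries and its partner HIST3H2BB, 234 bases away, had 59, which per kilobase of coding sequence is 24.02 against 1.746 CPM per kb. HIST1H2BK and HIST1H2AH had 331 and 4 counts (9.739 and 0.1168 CPM per kb of coding sequence). HIST1H2AC and HIST1H2BC had 329 and 44 counts (9.396 and 1.3 CPM per kb). HIST2H2BE, whose promoter window is printed above, and HIST2H2AC, whose window overlaps it, had 215 and 52 counts (6.354 and 1.487 CPM per kb). In contrast, HIST1H2BL and HIST1H2AI had 19 and 26 counts, and in HIST1H2AA and HIST1H2BA, a pair known from testis, both were at 0.

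The comparison of siHOXA3 with siControl asks whether these genes changed with the inhibition of HOXA3. The summed level of all 71 genes was 41.66, 38.5 and 37.57 CPM in siControl replicates 1, 2 and 3, and 43.75, 51.01 and 46.72 CPM in siHOXA3 replicates 1, 2 and 3. The groups did not overlap, with siHOXA3 replicate 2 highest, and the nearest pair, siControl replicate 1 (exact Poisson 95% interval 38.45 to 45.06 CPM) and siHOXA3 replicate 1 (40.43 to 47.29 CPM), overlapped within counting error. The means were 39.24 ± 2.14 and 47.16 ± 3.648 CPM (SD, n = 3 each), a ratio of 1.202. The sum was described without a test, since the genes were chosen with earlier results of these data known. Without HIST3H2A the ratio was 1.238, without HIST2H2BE 1.17 and without the library of siHOXA3 replicate 2 it was 1.15. In bulk samples more cells in S phase and more RNA per cell cannot be told apart.

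By type, H2B genes summed to 13.19, 9.757 and 11.04 CPM in siControl and 13.99, 15.19 and 13.49 CPM in siHOXA3 (ratio 1.255), and H2A genes to 15.54, 15.76 and 15.49 CPM against 17.01, 20.03 and 16.65 CPM (ratio 1.148). The groups of both types did not overlap, but each gap depended on single genes. HIST2H2BE held 2.545 CPM of the H2B sum in siControl replicate 1 and 3.429 CPM in siHOXA3 replicate 1. Without it the order of these libraries turns. HIST1H2AC held 3.071 to 3.296 CPM of the H2A sum in siControl and 4.847 CPM in siHOXA3 replicate 3. Without it that library lies below every siControl library. H4 genes summed to 5.96, 4.483 and 3.921 CPM against 5.692, 6.368 and 7.236 CPM, where siHOXA3 replicate 1 lay below siControl replicate 1. H1 genes summed to 3.081, 2.703 and 3.333 against 2.949, 5.108 and 3.653 CPM, and H3 genes to 3.884, 5.802 and 3.79 against 4.115, 4.312 and 5.69 CPM. In H1 and H3 the groups overlapped as well. The ratio was 1.343 for H4, 1.285 for H1 and 1.048 for H3, so H4 and H1 had higher ratios than H2A and H2B. By cluster, the 12 HIST2 genes had 3.416, 1.912 and 2.483 CPM in siControl and 4.732, 5.041 and 3.723 CPM in siHOXA3, a ratio of 1.728 that rests mostly on HIST2H2BE, with 215 of their 316 counts. The 55 HIST1 genes overlapped between the groups (ratio 1.137). By annotated end, the extended genes summed to 30.81, 29.34 and 26.59 CPM against 33.33, 37.15 and 34.99 CPM (ratio 1.216) and did not overlap. The genes annotated as coding sequence only, at 8.438, 7.845 and 9.409 against 8.23, 11.67 and 9.554 CPM (ratio 1.147), did. Those ending at the stem-loop overlapped too, at 1.406, 0.4615 and 1.176 against 1.783, 1.26 and 1.616 CPM. Their ratio was higher, at 1.531, on 114 counts. The remaining 4 genes had a ratio of 0.844 on 62 counts.

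**Figure D2:**
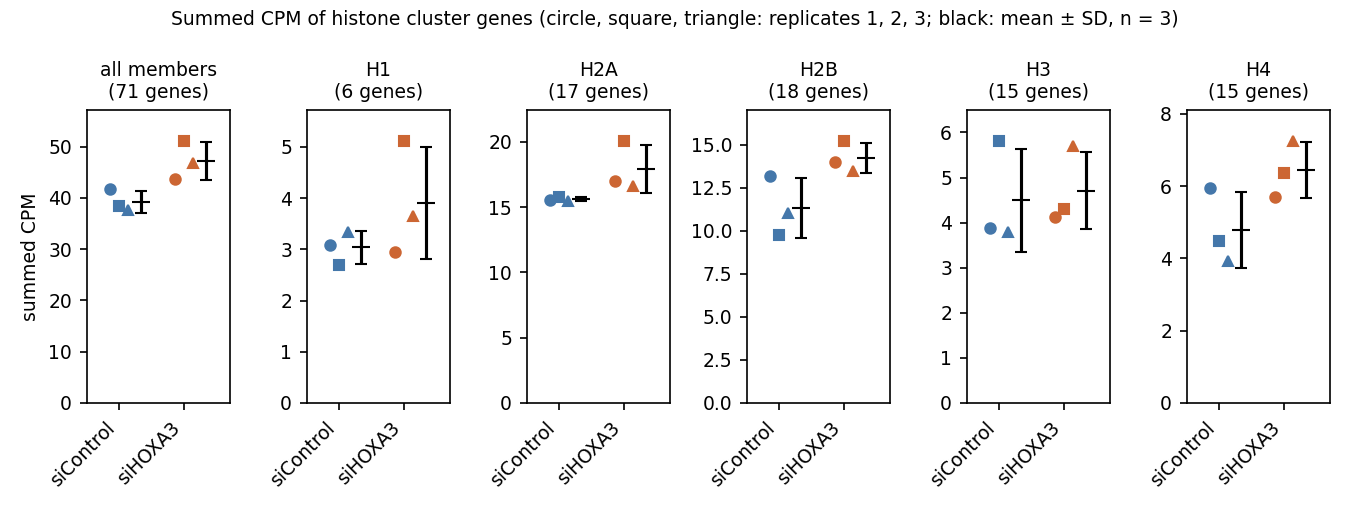
Summed CPM of the histone cluster genes in each library, for all 71 genes and for each histone type. Circles, squares and triangles are replicates 1, 2 and 3 and black bars are the mean ± SD of 3 libraries. The 3 siHOXA3 libraries lie above the 3 siControl libraries for all genes, H2A and H2B, while H1, H3 and H4 overlap.

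Single genes did not pass the test. By edgeR's quasi-likelihood test with Benjamini-Hochberg adjustment over 16561 genes, 0 of the 15 histone genes that passed the filter on low counts had an adjusted p under 0.05, where 0.00604% of all tested genes did, and DESeq2 and limma-voom gave 0 as well. At an unadjusted p under 0.05 there were 2, HIST2H2BE and HIST1H2BN, against 6.36% of all tested genes (3.79% higher and 2.57% lower). With a log2 fold change beyond 1 asked for besides an unadjusted p under 0.05 by edgeR, there was 1, HIST1H2BN, against 0.688%. With DESeq2 there was 0, since HIST2H2BE alone had an unadjusted p under 0.05 there, at a log2 fold change of 0.94. All siHOXA3 libraries lay above all siControl libraries in 4 of the 15 (background 6.41%) and below them in 1 (background 6.88%). The point estimate was higher in siHOXA3 in 11 of the 15, against 50.4% of all tested genes, and the median log2 fold change was 0.31 against 0.00 (0.0019) over all tested genes. These counts describe the genes that passed the filter only. Over the 57 genes with any count, 37 had a higher mean CPM in siHOXA3 and 20 a lower one, where 54% of all 34513 genes with a count were higher. Of the 57, 7 lay above without overlap (background 5.4%) and 2 below (background 4.24%). The spread was wide at these counts, with a median biological coefficient of variation of 0.2425 for the 15 genes and 0.1382 for all tested genes.

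**Figure D3:**
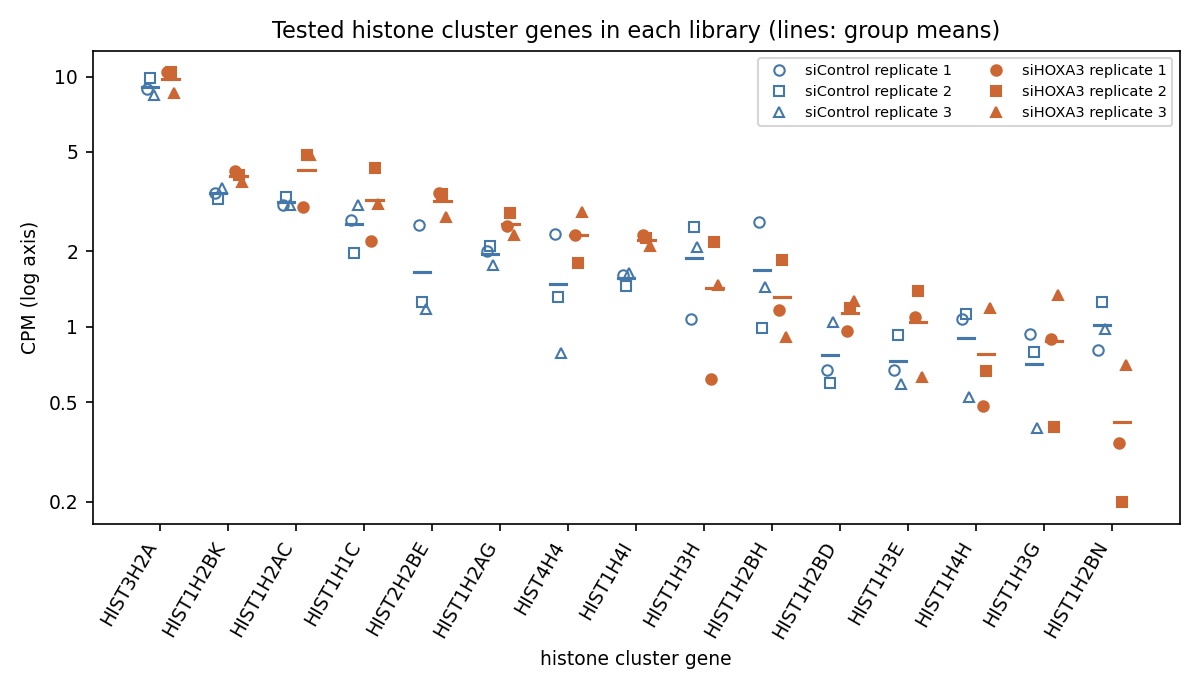
CPM on a log axis of the 15 tested histone cluster genes in each library, in the order of their mean level, with the group means as lines. HIST1H2BK, HIST2H2BE, HIST1H2AG and HIST1H4I are higher in every siHOXA3 library, HIST1H2BN is lower in every one, and the other 10 genes overlap.

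Among the H2A genes, HIST3H2A (ENSG00000181218, chr1:228456979-228457873, minus strand) had 133, 150 and 129 counts in siControl and 152, 157 and 122 in siHOXA3. Scaled to CPM, siControl replicate 3 (8.429) and the library labelled siHOXA3 replicate 3 (8.571) were the lowest, and the groups overlapped (9.075 ± 0.7443 and 9.803 ± 1.067 CPM, SD, n = 3 each; log2 fold change 0.11, SE 0.165, adjusted p = 0.918). HIST1H2AC (ENSG00000180573, chr6:26124145-26139116) had 46, 50 and 47 counts in siControl and 44, 73 and 69 in siHOXA3. Here siHOXA3 replicate 1 stayed with the siControl libraries while the other two were higher (log2 fold change 0.43, SE 0.254, adjusted p = 0.828). HIST1H2AG (ENSG00000196787, chr6:27133042-27135291) had 30, 32 and 27 counts in siControl and 37, 43 and 33 in siHOXA3. Its groups did not overlap, but the difference did not pass the test (log2 fold change 0.39, SE 0.273, adjusted p = 0.843).

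Among the H2B genes, HIST2H2BE (ENSG00000184678, chr1:149884459-149886652, minus strand) had 38, 19 and 18 counts in siControl and 50, 51 and 39 in siHOXA3. The siHOXA3 libraries were close to each other and all above siControl, of which replicate 1 was nearest. The means were 1.658 ± 0.7691 and 3.184 ± 0.3853 CPM (SD, n = 3 each), and the log2 fold change was 0.94 (SE 0.340, unadjusted p = 0.0179, adjusted p = 0.720 by edgeR). This gene is annotated with 1 transcript that runs 1729 bases past the stem-loop and carries a polyadenylation signal, and it shared 8.112% of its 50-base stretches. Its log2 fold change was 0.75 without siControl replicate 3 and 1.38 without siControl replicate 1, and the unadjusted p was not under 0.05 without siControl replicate 2 or 3.

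HIST1H2BN (ENSG00000233822, chr6:27837760-27865798) was the gene with the lowest log2 fold change. It had 12, 19 and 15 counts in siControl and 5, 3 and 10 in siHOXA3, all lower than in siControl (1.012 ± 0.2262 and 0.4148 ± 0.2594 CPM, SD, n = 3 each; log2 fold change -1.28, SE 0.535, unadjusted p = 0.0336, adjusted p = 0.741 by edgeR). It was over the CPM filter of 0.665 in 3 siControl libraries and 1 siHOXA3 library. It overlaps HIST1H2AK, HIST1H2AL and HIST1H2BPS2, so counts may be split or lost there. The unadjusted p was under 0.05 with each of siControl replicate 1 and siHOXA3 replicate 3 left out, and not with any of the other 4 libraries left out, nor with DESeq2.

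Of the other H2B genes tested, none had an unadjusted p under 0.05. HIST1H2BK (ENSG00000197903, chr6:27146418-27146798, minus strand) had 51, 49 and 55 counts in siControl and 61, 61 and 54 in siHOXA3, which did not overlap as CPM (3.413 ± 0.1817 and 4.008 ± 0.1977, SD, n = 3 each; log2 fold change 0.23, SE 0.217, adjusted p = 0.876). HIST1H2BD (ENSG00000158373, chr6:26158146-26171349) had 10, 9 and 16 counts in siControl and 14, 18 and 18 in siHOXA3, which overlapped as CPM (log2 fold change 0.56, SE 0.417, adjusted p = 0.849). HIST1H2BH (ENSG00000275713, chr6:26251651-26253710) had 39, 15 and 22 counts in siControl and 17, 28 and 13 in siHOXA3. Its value rests on the high siControl replicate 1, since its log2 fold change of -0.35 (SE 0.442, adjusted p = 0.905) became 0.12 without that library. Too low for the test, HIST3H2BB had 3, 8 and 8 counts in siControl and 9, 14 and 17 in siHOXA3, HIST1H2BG had 1, 2 and 4 against 5, 17 and 6, and HIST2H2BF had 4, 1 and 0 against 7, 6 and 6. In all 3 the groups did not overlap, and these genes were singled out after their values were seen.

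The H3 genes showed no common direction. HIST1H3H (ENSG00000278828, chr6:27810064-27811300) had 16, 38 and 32 counts in siControl and 9, 33 and 21 in siHOXA3, with a spread within each group wider than the difference between them (log2 fold change -0.40, SE 0.471, adjusted p = 0.898). HIST1H3E (ENSG00000274750, chr6:26224199-26227473), whose stem-loop had the 1 mismatch, had 10, 14 and 9 counts in siControl and 16, 21 and 9 in siHOXA3 (log2 fold change 0.52, SE 0.457, adjusted p = 0.867). HIST1H3G, the third H3 gene tested, had 14, 12 and 6 counts against 13, 6 and 19. HIST3H3, a gene known from testis whose annotation ends 8 bases past the stem-loop, had 5, 2 and 4 counts in siControl and 14, 1 and 16 in siHOXA3 and was too low for the test.

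Among the H4 genes, HIST1H4I (ENSG00000276180, chr6:27138588-27139881) had 24, 22 and 25 counts in siControl and 34, 34 and 30 in siHOXA3. Both groups were tight and did not overlap (1.564 ± 0.09904 and 2.232 ± 0.114 CPM, SD, n = 3 each), with a log2 fold change of 0.51 (SE 0.292, unadjusted p = 0.106, adjusted p = 0.828 by edgeR). HIST4H4 (ENSG00000197837, chr12:14767999-14771131, minus strand) had 35, 20 and 12 counts in siControl and 34, 27 and 41 in siHOXA3. Its siControl replicate 1 lay within the siHOXA3 libraries, and its log2 fold change of 0.65 (SE 0.407, adjusted p = 0.828) was 1.14 without that library and 0.35 without siControl replicate 3. HIST1H4H had 16, 17 and 8 counts in siControl and 7, 10 and 17 in siHOXA3, and its groups overlapped.

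Of the H1 genes 1 was tested. HIST1H1C (ENSG00000187837, chr6:26055787-26056428, minus strand) had 40, 30 and 47 counts in siControl and 32, 65 and 44 in siHOXA3. The highest library was siHOXA3 replicate 2, and the log2 fold change of 0.31 (SE 0.310, adjusted p = 0.884) was 0.03 without it. HIST1H1E, the second H1 gene by level, had 2, 7 and 1 counts in siControl and 2, 5 and 2 in siHOXA3.

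The replication-independent variants, which are encoded outside the clusters, mostly by genes whose mRNAs are polyadenylated, were read far more deeply. Summed per kilobase of merged exons, the 22 variant rows had 659.7 to 889.4 CPM per kb in the 6 libraries and the 71 cluster genes 41.65 to 57.16, so that the clusters made up 5.846 to 7.047% of both. H2AFX, the highest of them at 201.8 CPM per kb, is known to make both a stem-loop and a polyadenylated mRNA. Among H3 genes the clusters took 1.292 to 3.818%, among H2A genes 3.585 to 4.238% and among H1 genes 3.79 to 6.854%. In H2B the clusters took at least 99.05%, and no H4 variant was listed. The H2B variants listed, H2BFM, H2BFWT and H2BFS, had at most 1 count in any library. H2BFS shares 50-base stretches with HIST1H2BK and other cluster genes, so its counts are uncertain. Of the 11 variants tested, 0 passed an adjusted p of 0.05, 8 had a higher and 3 a lower point estimate in siHOXA3, and 3 had an unadjusted p under 0.05. These were H2AFJ, an H2A variant, with 343, 306 and 356 counts in siControl and 491, 629 and 361 in siHOXA3 (log2 fold change 0.60, adjusted p = 0.561), the linker variant H1FX, with 1482, 1329 and 1043 against 1793, 2231 and 1418 (0.54, adjusted p = 0.623), and H2AFY2, a macroH2A gene, with 916, 824 and 888 against 1061, 1221 and 923 (0.33, adjusted p = 0.710). In all 3, siHOXA3 replicate 2 was highest. The median log2 fold change of the variants was 0.16, and it was 0.03 without that library. For the variants known for their general use, it was -0.16 for H2AFZ, 0.16 for H3F3B, 0.17 for H2AFX and 0.15 for H1F0, none with an unadjusted p under 0.05.

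**Figure D4:**
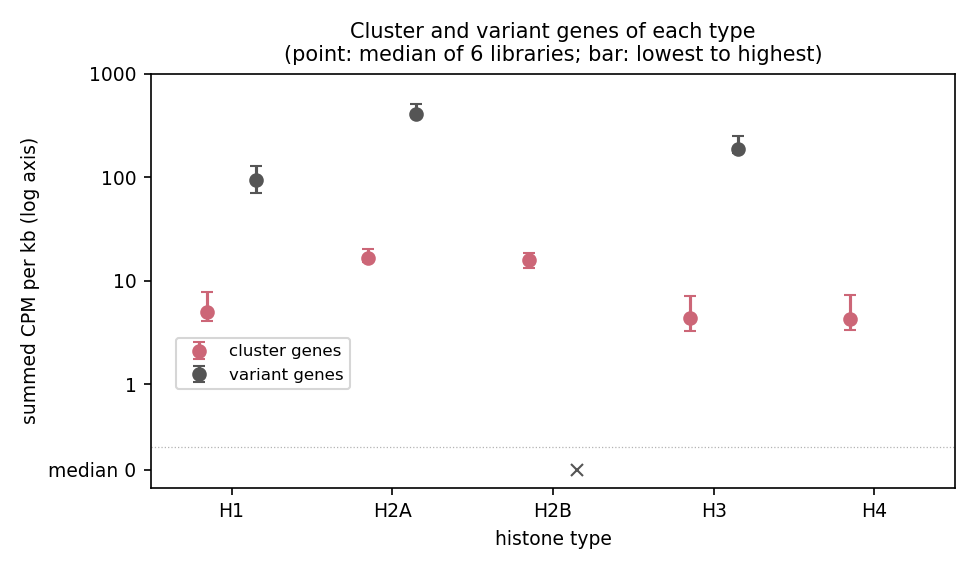
Summed CPM per kilobase of merged exons of the cluster genes and of the variant genes of each histone type, on a log axis. Points are the medians of the 6 libraries, bars run from the lowest to the highest library, and the cross marks the H2B variants, with a median of 0. In H1, H2A and H3 the variants lie above the cluster genes in every library.

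Genes that make and finish the histone mRNAs were measured from a list of 30, all of them tested. None had an unadjusted p under 0.05, 15 were higher and 15 lower, and the median log2 fold change was 0.00 (0.0044). SLBP had 1481, 1718 and 1699 counts in siControl and 1503, 2177 and 1487 in siHOXA3 (log2 fold change 0.12, SE 0.136, adjusted p = 0.893). NPAT, the coactivator of histone gene transcription, had a log2 fold change of -0.19 (SE 0.129) and CASP8AP2 (FLASH), which acts in cleavage at the stem-loop, of -0.14 (SE 0.132). The U7 snRNP proteins LSM10 and LSM11 had 0.32 (SE 0.160) and -0.20 (SE 0.126), and ERI1, the exonuclease that trims the stem-loop end, had 0.10 (SE 0.116).

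The genes of DNA replication and S phase showed no common direction. Of 45 tested, 19 were higher and 26 lower in siHOXA3, 0 had an unadjusted p under 0.05, and the median log2 fold change was -0.01. Their summed level was 4412, 4617 and 4812 CPM in siControl and 4438, 4903 and 4428 CPM in siHOXA3, which overlapped. PCNA, the clamp of the DNA polymerases, had a log2 fold change of 0.13 (SE 0.146), MCM2 and CDC45, parts of the replicative helicase, had -0.16 (SE 0.105) and 0.08 (SE 0.123), and CCNE2 had -0.07 (SE 0.238). Of 25 histone chaperones 24 were tested, 12 higher and 12 lower, with 0 under an unadjusted p of 0.05 and a median of 0.00 (0.0006). NASP had 0.05 (SE 0.101), ASF1B -0.01 (SE 0.109) and CHAF1A 0.01 (SE 0.0939).

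Other RNAs that have no poly(A) tail were given beside the histone genes, since a selection of polyadenylated RNA would leave them out in the same way. In a list of 24 symbols, covering 25 rows, only RN7SL2, a 7SL RNA gene of the signal recognition particle, was tested. It had 161, 30 and 30 counts in siControl and 382, 190 and 138 in siHOXA3, where siControl replicate 1 was above siHOXA3 replicate 3 as CPM, with a log2 fold change of 1.72 (SE 0.571, unadjusted p = 0.0116, adjusted p = 0.698 by edgeR) that was 3.03 without siControl replicate 1. The list summed to 11.05, 2.769 and 2.352 CPM in siControl and 26.88, 13.86 and 10.47 CPM in siHOXA3. These sums lay mostly on RN7SL2, which had 26.2 CPM in siHOXA3 replicate 1. The mean of the list was higher in siHOXA3 (5.391 CPM in siControl and 17.07 CPM in siHOXA3), as was that of the histone sum. Within the siHOXA3 group, replicate 1 was highest for the list and lowest for the histone sum. The part of the share of RNA without a tail in the histone sums was not tested.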

How the data were processed

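RNA-seq libraries of 3 siControl and 3 siHOXA3 cultures were analysed. The authors deposited 1 table of raw counts per gene, without normalization, from single reads of LM-Seq libraries. The aligner, counting program and annotation are not given in the sources used here, and the submitters' processing notes list the mouse builds GRCm38 and mm10, although all 58735 identifiers are human and were found in GENCODE 29 (GRCh38), which gave symbols, positions and sequences.

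Counts were fitted in R 4.3.3 with edgeR 4.0.16 (filterByExpr, TMM, robust two-sided quasi-likelihood test, Benjamini-Hochberg adjustment over 16561 genes), and CPM used the TMM library sizes. Alternatives were DESeq2 1.42.0, limma-voom (limma 3.58.1) with quality weights, other scalings and filters, a replicate block, each library left out, and other lengths for the extension and shared stretches. Named genes were the 12 highest by mean CPM, the 2 highest of each type, those with an unadjusted p under 0.05 or with all 50-base stretches shared, and fixed examples of the other lists. The members and lists were chosen with earlier results of these data known.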

Additional observations from a re-analysis of the deposited data

How the results depend on the processing

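In every alternative run, 0 of the cluster genes passed an adjusted p of 0.05. The number with an unadjusted p under 0.05, 2 as reported, was 1 with DESeq2 and with a filter that asks for a CPM over 1 in 3 libraries, 4 with limma-voom (where 13.4% of all genes had one) and 6 of 57 without a filter, and 0 to 3 with a library left out, with 0 without siControl replicate 2 or 3. The filters change how many genes are tested, and otherwise the cause was not tested. The median log2 fold change of the tested genes was 0.24 to 0.48 in all alternatives, and the ratio of the summed CPM 1.15 to 1.246.

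The replicate block left the count at 2 and the median at 0.29, with 4 genes of the whole table under an adjusted p of 0.05 in place of 1. The deviations of same-numbered libraries correlated by 0.142, 0.104 and -0.059, and since 1 of the 3 was below 0, the numbers were not taken to pair the libraries.

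The log2 fold change of HIST1H2BH reversed to 0.12 without siControl replicate 1 and was -0.69 without siHOXA3 replicate 2, and the other 166 of 167 alternative values of the 13 named genes with a fit had the same sign and call. The median of the variants was 0.027 with limma-voom and, leaving out each library, 0.025 to 0.25, that of the replication genes from -0.059 to 0.026, and the value of RN7SL2 from 1.19 to 3.03. The extended genes had 1.898 CPM per kb of coding length, by its shorter length alone. With 75-base stretches the median shared share was 0%.

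Depth limits the comparison, since 56 of the 71 genes were too low for the test and 14 of these had no count.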

Other observations

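The 19 other rows with a HIST symbol, pseudogenes that the selection left out, held 555 counts, and 9 of them had any. Their sums were 102, 83 and 55 counts in siControl and 98, 77 and 140 in siHOXA3, so the library labelled siHOXA3 replicate 3 was highest and the groups overlapped. Most lay on HIST2H2BC, a transcribed H2B pseudogene with 69, 56 and 41 counts in siControl and 63, 49 and 86 in siHOXA3 (log2 fold change 0.31, SE 0.291, adjusted p = 0.879), and on HIST2H2BD, with 32, 24 and 13 against 35, 22 and 43 (log2 fold change 0.59, SE 0.406, adjusted p = 0.843). Both share 50-base stretches with HIST2H2BE. With 364 counts HIST2H2BC was read more often than HIST2H2BE, with 215, over a longer set of exons (6440 against 2194 bases).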
